A study of Mus musculus with 2 samples.

Results

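The accessible chromatin of 9 regulators of epidermal fate was described in the mouse limb at embryonic day 14.5. The genes are Trp63, Tfap2a, Tfap2b, Tfap2c, Grhl1, Grhl2, Grhl3, Ovol1 and Klf4. They are 9 of 21938 protein-coding genes in GENCODE M21 and are given by name, so that no signal value enters the rule. The choice was, however, made with earlier results of these data known. DNase-seq, which sequences the ends of fragments that the nuclease DNase I cuts from accessible DNA, was carried out on whole limbs of strain B6NCrl embryos, with males and females pooled. There is 1 group of 2 biological replicates, each 1 library. Both carry the same donor identifier in the labels, but separate biosamples, and nothing says whether they came from separate litters, so any spread between them may be technical. The labels report healthy embryos, name no treatment or allele, and do not say whether fore- or hindlimbs were taken. Each library has a list of 150 bp peaks with a signal in the authors' own unit, and a list of hotspots, broader regions of raised cutting. The members' peaks number 172 of 208674 in replicate 1 and 149 of 196593 in replicate 2. They comprise peaks touching the 500 bp on either side of a transcription start site (TSS) of a member, and distal peaks, whose centre is over 1 kb from all protein-coding TSSs and nearest, within 100 kb, to that of a member. A peak is called shared where a single peak of the other replicate covers at least 50% of it. Pairs of signals or ranks are given with replicate 1 first. A further 9 peaks in replicate 1 and 8 in replicate 2 lay near a member between these classes and were not counted. At the limits, the smallest distal distance was 1012 bp (signal 22 in replicate 1, at Tfap2b) and the largest 99.6 kb (signal 25 in replicate 2, at Klf4), while the next peak outward lay at 103.4 kb (signals 38 and 35, at Trp63). The read depth behind the lists is unknown, and the absence of a peak says no more than that the authors called none there.

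The limb at this stage is mostly mesenchyme, cartilage and muscle, and the epidermis is a thin sheet over it. Whole tissue was used, so fewer cells of a type and less accessibility per cell cannot be told apart. Shared TSS peaks were found at 8 of 8 fixed markers of limb mesenchyme, 7 of 8 of basal epidermis and 4 of 4 of skeletal muscle, and at 3 of 6 of endothelium, 3 of 5 of Schwann cells and melanocytes and 2 of 4 of cartilage, but at 0 of 4 of macrophages and 0 of 3 of erythroid cells. The exception in the epidermal set was Krt14, a basal keratin, whose TSS peaks (1 in replicate 1, 2 in replicate 2) were not shared. Over all protein-coding genes the share was 65.1%, and these sets are small. At least 1 shared distal peak lay at 4 of 4 macrophage and 2 of 3 erythroid markers, beside 64.9% of all genes.

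Epidermal fate is set when the surface ectoderm turns on Trp63, whose protein p63 holds the stratified programme and the basal progenitors. The gene has 2 promoters. The upstream promoter yields TA isoforms with a transactivation domain, and the internal promoter yields the shorter delta N isoforms that predominate in basal epidermis. The AP-2 factors (Tfap2a, Tfap2b, Tfap2c) act in surface ectoderm and neural crest, and Tfap2a and Tfap2c act with p63 in keratinocytes. Grainyhead-like factors (Grhl1, Grhl2, Grhl3) regulate junctions and the barrier. Ovol1 drives progenitors out of the cycle, and Klf4 acts late, in barrier formation.

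The sequences on which the account turns are given first, on the plus strand of mm10, 5′ to 3′. Capitals mark letters that match a pattern linked with the members' own protein families. The patterns are GCCNNNGGC for AP-2, AACCNGTT for GRHL, ACATGT or a pair of CATG blocks 6 bases apart for p63, GGGTGTG for KLF and CCGTTA for OVOL, all read on both strands. ACATGT contains CATG, so the p63 patterns can overlap. The first is the only shared TSS peak of Trp63, and the next is its strongest shared distal peak. Neither holds any of these letters.
Trp63 delta N promoter peak, chr16:25801796-25801945: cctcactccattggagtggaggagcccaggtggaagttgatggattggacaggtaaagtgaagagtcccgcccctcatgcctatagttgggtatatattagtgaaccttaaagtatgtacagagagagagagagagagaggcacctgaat
Trp63 intron, strongest distal, chr16:25746956-25747105: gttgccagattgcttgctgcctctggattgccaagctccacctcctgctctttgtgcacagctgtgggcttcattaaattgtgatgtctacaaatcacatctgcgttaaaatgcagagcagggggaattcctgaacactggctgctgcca
The next 3 are the shared distal peaks that, at the coordinates of replicate 1, hold the GRHL letters or the p63 pair, with capitals for those alone. Both peaks with GRHL letters also hold the AP-2 letters, not capitalised here.
Trp63 intron, GRHL letters, chr16:25780116-25780265: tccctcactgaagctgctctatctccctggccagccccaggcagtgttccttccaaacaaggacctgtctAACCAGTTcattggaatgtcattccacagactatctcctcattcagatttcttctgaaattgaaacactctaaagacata
Trp63 intron, p63 pair, chr16:25765876-25766025: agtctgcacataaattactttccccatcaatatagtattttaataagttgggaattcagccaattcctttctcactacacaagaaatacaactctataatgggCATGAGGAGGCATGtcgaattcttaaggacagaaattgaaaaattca
Grhl3 intron, GRHL letters, chr4:135548156-135548305: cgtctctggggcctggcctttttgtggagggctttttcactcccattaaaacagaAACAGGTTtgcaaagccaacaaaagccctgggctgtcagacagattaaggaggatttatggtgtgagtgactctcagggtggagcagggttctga
The last 4 are the strongest shared distal peaks of Tfap2a, Klf4, Tfap2c and Grhl3. Those of Tfap2a, Klf4 and Grhl3 are shown because their mean rank was above 90, and that of Tfap2c because it holds the AP-2 letters at an AP-2 gene. The Tfap2a and Klf4 peaks hold the KLF letters, and the Grhl3 peak holds none of the patterns. The strongest shared distal peaks of Tfap2b, Grhl1, Grhl2 and Ovol1, not printed here, also hold none of them.
Tfap2a intron, chr13:40722836-40722985: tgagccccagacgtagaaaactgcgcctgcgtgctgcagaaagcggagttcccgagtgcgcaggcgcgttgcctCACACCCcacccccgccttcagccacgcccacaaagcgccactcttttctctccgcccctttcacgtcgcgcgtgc
Klf4 downstream, chr4:55514836-55514985: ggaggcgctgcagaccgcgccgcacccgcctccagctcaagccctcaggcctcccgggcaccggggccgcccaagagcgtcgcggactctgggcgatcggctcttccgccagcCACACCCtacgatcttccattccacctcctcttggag
Tfap2c upstream, chr2:172547276-172547425: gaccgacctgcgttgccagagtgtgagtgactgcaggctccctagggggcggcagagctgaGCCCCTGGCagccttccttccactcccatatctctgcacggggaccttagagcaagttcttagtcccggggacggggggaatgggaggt
Grhl3 intron, chr4:135570296-135570445: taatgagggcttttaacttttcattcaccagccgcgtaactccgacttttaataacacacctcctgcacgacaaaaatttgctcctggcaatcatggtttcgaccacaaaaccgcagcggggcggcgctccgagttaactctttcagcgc

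A peak lay at the TSS of all 9 members in replicate 1 and of all 9 in replicate 2, where 69.4% and 68.2% of all protein-coding genes had one. A shared TSS peak was present at 8 of 9, beside 65.1% of all genes, with Ovol1 the exception. The members' TSS peaks number 30 in replicate 1, 26 in replicate 2 and 16 shared. Counted by annotated TSS, 22 of the members' 38 had a shared peak, beside 51.9% of all TSSs of protein-coding genes. When only the 50000 peaks of highest signal were kept in each list, 4 of 9 members had a shared TSS peak. With hotspots in place of peaks the count was 7, and with the outermost TSS of each gene only it was 6. The share of all genes under these alternatives is not given here, so they are not set beside other genes.

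**Figure D1:**
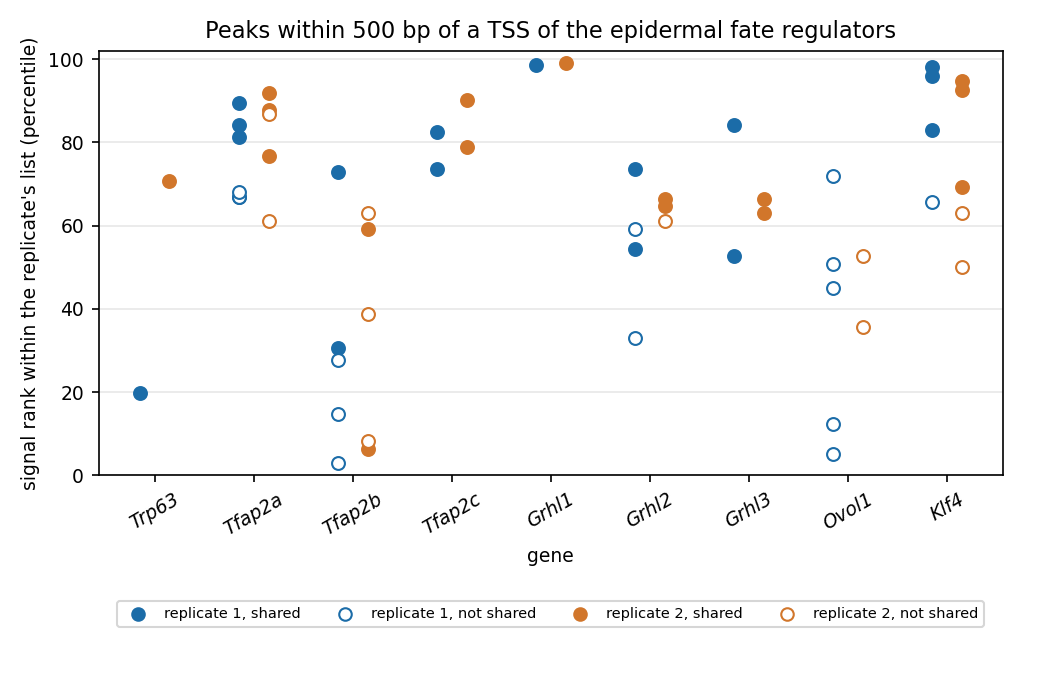
Signal rank, as a percentile of all peaks in the replicate's own list, of each peak within 500 bp of a TSS of the 9 genes (replicate 1 blue, replicate 2 orange, filled where shared). Grhl1 lies at 98.5 and 99.2, Trp63 at 19.8 and 70.8, and no Ovol1 peak is shared.

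Trp63 (ENSMUSG00000022510.14, chromosome 16, 25683763 to 25892102, plus strand) had a shared peak at its internal promoter and none called at its upstream promoter. The delta N TSS lies at 25801916, and its peak had signals of 29 and 42. These are rank percentiles of 19.8 and 70.8 within the lists, so the peak was among the weaker ones in replicate 1 and above the median in replicate 2. The hotspot over it was 150 bp wide with a −log10 q-value of 3.77 in replicate 1, and 229 bp wide with 5.10 in replicate 2. At the TA TSSs, 25683763 and 25683765, there was no peak and no hotspot within 500 bp in either replicate. The peak closest to them was shared and lay 1.0 kb upstream, with signals of 43 and 28. It fell 992 bp from the TSS in replicate 1 and 1012 bp in replicate 2, on either side of the 1 kb limit. With a TSS window of 1000 bp it counted for the TA promoter. The delta N peak was lost when only the 50000 strongest peaks were used.

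Both Trp63 promoters are poor in CpG, unlike most of the other members' promoters. The ratio of observed to expected CpGs within 500 bp was 0.24 at the delta N TSS and 0.196 at the first TA TSS. Over all 93513 TSSs of protein-coding genes, 18.7% of those with a ratio of 0.2 to 0.4 had a shared peak, and 7.14% of those below 0.2. The share was 93.2% between 0.6 and 0.8. The delta N promoter was open in a class of TSSs where most were not.

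**Figure D2:**
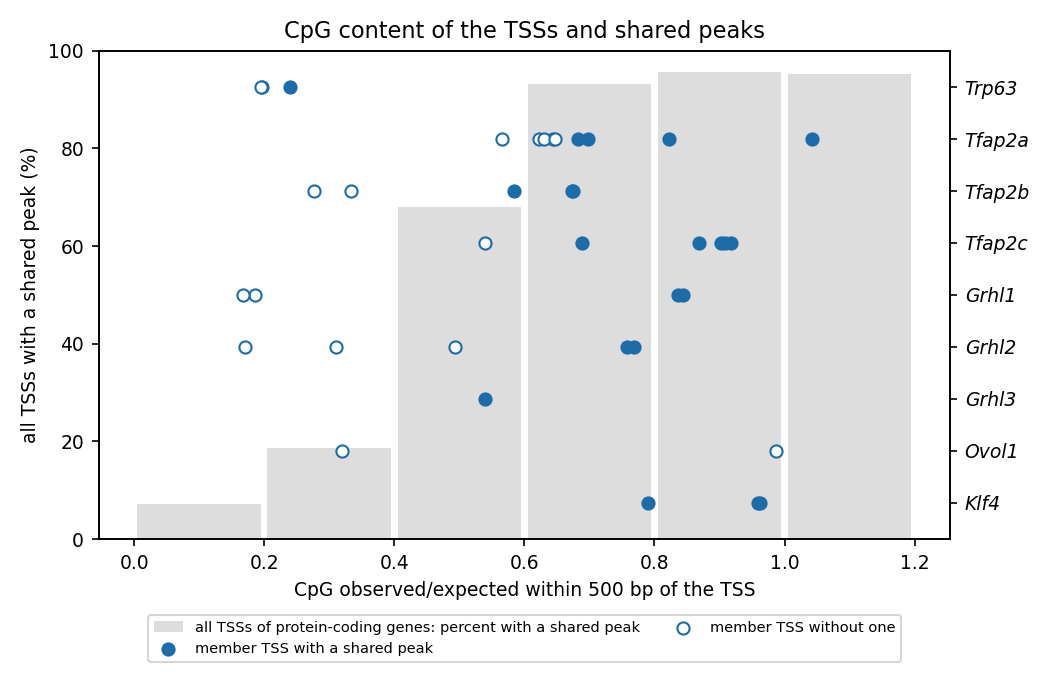
CpG ratio within 500 bp of each annotated TSS of the 9 genes (points, filled where a shared peak was present, gene names on the right axis), over bars giving the percentage of all protein-coding TSSs with a shared peak in each CpG bin. The delta N TSS is the filled Trp63 point at 0.24, and the Ovol1 TSS at 0.986 is the unfilled point farthest to the right.

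The 15 shared distal peaks of Trp63 were spread on all sides of its promoters, which lie 118.2 kb apart. Of these, 4 lay upstream of the TA TSS, 7 between the promoters and 4 downstream of the delta N TSS, and 11 of the 15 were in its own introns. The strongest lay between the promoters, 54.9 kb upstream of the delta N TSS, with signals of 89 and 70 in replicates 1 and 2 (rank percentiles 89.8 and 91.2). The next in rank lay 21.7 kb upstream of delta N with signals of 53 and 52, and holds the GRHL letters. The one after it was 41.9 kb downstream of delta N, with signals of 56 and 47. The peak with the p63 pair had signals of 39 and 41. Apart from the strongest, no shared distal peak of Trp63 exceeded a signal of 56 in replicate 1 or 52 in replicate 2.

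The 3 AP-2 genes were open at TSSs with CpG ratios above the median of all TSSs, 0.425. Tfap2a (ENSMUSG00000021359.16, chromosome 13, 40715302 to 40738376, minus strand) has 9 annotated TSSs and 3 shared TSS peaks. The peak at 40730676 to 40730825 had signals of 88 and 62, that at 40731636 to 40731785 had 71 and 47, and that at 40733896 to 40734045 had 76 and 72. All 3 ranked above 76 in both lists. The outermost TSS, at 40738376, had no peak in replicate 1 and a single peak of signal 36 in replicate 2. Of the 9 TSSs, 5 had a shared peak, at CpG ratios from 0.644 to 1.04. TSSs without one also lay above that median, at 0.566 to 0.647 in Tfap2a and 0.540 in Tfap2c. The strongest of its 7 shared distal peaks, in its own intron 6.0 kb downstream of the closest TSS, had signals of 125 and 97 and rank percentiles of 97.6 and 96.9. It was the strongest shared distal peak of any member in both replicates, and its CpG ratio was 1.07. When noncoding genes and pseudogenes could also claim peaks, it was no longer given to Tfap2a. The next in rank lay 10.9 kb upstream (88 and 37) and 19.8 kb upstream (68 and 40), both intergenic.

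Tfap2c (ENSMUSG00000028640.11, chromosome 2, 172549593 to 172558622, plus strand) had 2 shared TSS peaks and no others. The upstream peak had signals of 60 and 67, and the one at the internal TSSs had 73 and 49. They ranked between 73.7 and 90.1. Its 6 shared distal peaks were all intergenic, 1 upstream and 5 downstream, and had signals of 36 to 62 in the first replicate and 24 to 53 in the second. The strongest, 2.2 kb upstream, had signals of 60 and 53 and holds the AP-2 letters, as does another 27.3 kb downstream (62 and 42). Between them in rank stood a peak 71.7 kb downstream (62 and 49).

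Tfap2b (ENSMUSG00000025927.13, chromosome 1, 19208914 to 19238576, plus strand) had weaker TSS peaks than its relatives. The shared peak near the first TSS had signals of 59 and 35, and the other, at the most internal TSS, had 33 and 16, ranks of 30.5 and 6.33. Of 5 TSS peaks in each replicate only 2 were shared. The hotspots around these TSSs were broad despite the low peak signals, at 1779 bp in all in replicate 1 and 2704 bp in replicate 2, and 4 of 4 in replicate 2 were at the −log10 q ceiling of 100 against 1 of 5 in replicate 1. Of its 6 shared distal peaks 4 had a mean rank above that of its stronger shared TSS peak, 65.99, and the other 2 had 60.6 and 36.1. The 6 shared ones ran from 33 to 82 in the first replicate and from 27 to 58 in the second, and the top 3, at 27.7 kb downstream and at 2.5 and 3.1 kb upstream, had mean ranks of 83.4, 82.9 and 82.5.

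Of the Grainyhead-like genes, Grhl1 had by far the strongest promoter peak, while Grhl3 had the densest distal peaks. Grhl1 (ENSMUSG00000020656.16, chromosome 12, 24572283 to 24617391, plus strand) had a single TSS peak, with signals of 130 and 115, at the same coordinates (24572096 to 24572245) and ranks of 98.5 and 99.2. No other TSS peak of a member ranked higher in either replicate. Its 2 internal TSSs, 8.4 kb downstream, had CpG ratios of 0.187 and 0.167 and no peak. Grhl2 (ENSMUSG00000022286.16, chromosome 15, 37233036 to 37363569, plus strand) had 2 shared peaks at its first TSSs, the outer with signals of 44 and 38 and the inner with 60 and 39. Between them, peaks of 47 and 36 overlapped by 30 bp and were not shared. Its 3 internal TSSs had no shared peak within 500 bp, although a shared peak of signals 77 and 42 lay 0.9 kb downstream of the most internal one. Grhl3 (ENSMUSG00000037188.7, chromosome 4, 135541888 to 135573630, minus strand) has 1 annotated TSS. The peak on it had signals of 76 and 39, and a second 0.4 kb downstream had 43 and 37.

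The distal peaks of these 3 genes differed in placement. Grhl1 had 8, of which 7 lay in its own introns and 7 downstream of the closest TSS, with the strongest 22.7 kb downstream (signals 98 and 53), followed by peaks 20.3 kb (86 and 49) and 12.6 kb downstream (67 and 38). Grhl2 had 11, of which 6 were intergenic and 5 in its introns. The strongest, 34.9 kb upstream, had signals of 69 and 60. The next, in an intron 1.4 kb downstream, had 60 and 56, and another 73.4 kb upstream had 63 and 50. Grhl3 had 13, of which 7 were in its introns. The strongest, 3.3 kb inside the gene, had signals of 97 and 63 within a hotspot 1311 bp wide in replicate 1 and 452 bp in replicate 2, and its CpG ratio was 1.26. A second, intergenic and 22.5 kb upstream, had 66 and 58, and an intronic peak 23.5 kb downstream had 68 and 39.

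Ovol1 had the fewest shared peaks of the members. Ovol1 (ENSMUSG00000024922.2, chromosome 19, 5549136 to 5560646, minus strand) had 5 TSS peaks in replicate 1, with signals from 22 to 58, and 2 in replicate 2, with signals of 32 and 26. The strongest of each list, at 5560736 and 5560636, overlapped by 50 bp, short of the 50% rule, and under a rule of 1 bp Ovol1 too had a shared TSS peak. A further peak 0.9 kb upstream, outside the TSS window, was shared, with signals of 29 and 24. Both replicate 2 peaks lay wholly inside hotspots of replicate 1, and the widest hotspot there was 1098 bp in replicate 1 and 296 bp in replicate 2. Its main TSS has a CpG ratio of 0.986, a class where 95.7% of all TSSs had a shared peak. It had 1 shared distal peak, 15.2 kb downstream in the pseudogene Gm31166, of signals 36 and 23. Its territory, the sequence given to it by the distal rule, is 26.1 kb, the smallest among the members.

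Klf4 had the widest single hotspot over a TSS of any member in both replicates. Klf4 (ENSMUSG00000003032.8, chromosome 4, 55527143 to 55532466, minus strand) had 3 shared TSS peaks, of signals 74 and 41, 128 and 84, and 115 and 74. The stronger 2 ranked between 92.5 and 98.1. The hotspot over the promoter spanned 3113 bp in replicate 1 (55531305 to 55534417) and 1773 bp in replicate 2 (55532300 to 55534072). Only 130 of 186036 hotspots of replicate 1 were at least as wide, and 546 of 181251 of replicate 2. Klf4 also had the most shared distal peaks of the members, 17, of which 13 lay downstream. The leading pair stood 16.9 and 16.7 kb downstream in intergenic sequence, in a hotspot 1148 bp wide in replicate 1 and 653 bp in replicate 2, the farther with signals of 103 and 79 and the nearer with 98 and 66. The next in rank, in an exon 1.3 kb from the closest TSS, had 89 and 66.

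Together the members had 84 shared distal peaks, with 142 distal peaks in replicate 1 and 123 in replicate 2. Each member had at least 1, against 64.9% of all protein-coding genes. The median was 8 per member, from 1 at Ovol1 to 17 at Klf4, and over all genes it was 1. Territories differed in size, and per 100 kb of territory the members had 6.10 shared distal peaks where all genes together had 4.79. Of the 9 genes 3 stood well above that value. Grhl3 had 13.96 per 100 kb (a density above that of 91.8% of genes), Grhl1 10.4 (85.3%) and Klf4 9.0 (80.9%). Trp63, with 4.91, and the other 5, from 3.83 to 4.59, lay near the value of all genes together or below it. Even so, their densities were above those of 53.4% (Ovol1) to 60.4% (Trp63) of single genes. The counts depended on the annotation. When noncoding genes and pseudogenes were allowed to claim peaks, 37 of the 84 were still nearest to a member, 11 at Trp63, 7 at Grhl3, 7 at Grhl1, 6 at Tfap2c, 3 at Klf4, 2 at Tfap2b and 1 at Grhl2. Tfap2a kept 0 of its 7, its strongest included, and Ovol1 kept 0 of 1. With the 50000 strongest peaks of each list the count was 16. Neither count has the same over all shared distal peaks beside it, so neither loss can be called particular to the members.

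**Figure D3:**
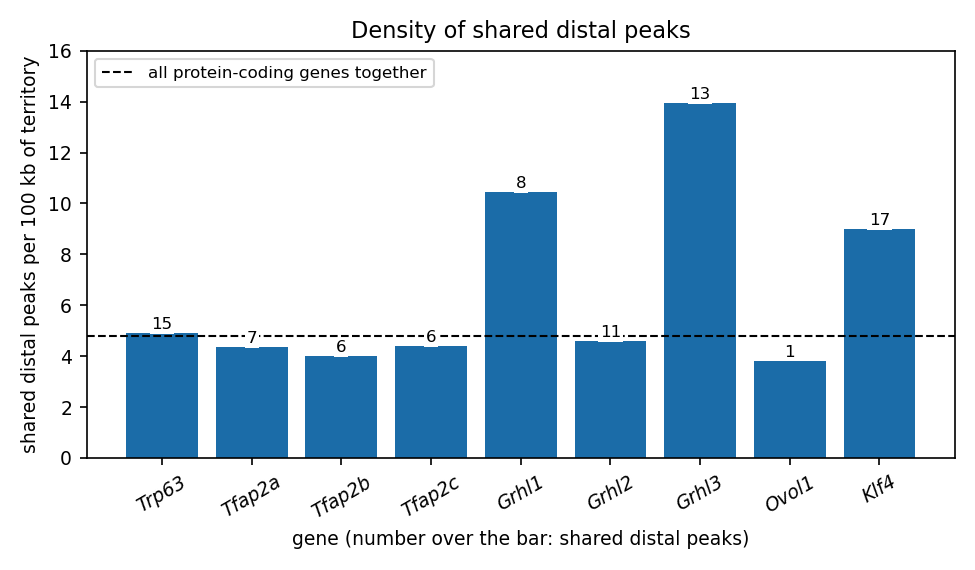
Shared distal peaks per 100 kb of territory at each of the 9 genes, with the number of peaks over the bar and a dashed line for all protein-coding genes together at 4.79. Grhl3, Grhl1 and Klf4 stand above the line and the other 6 near or under it.

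**Figure D4:**
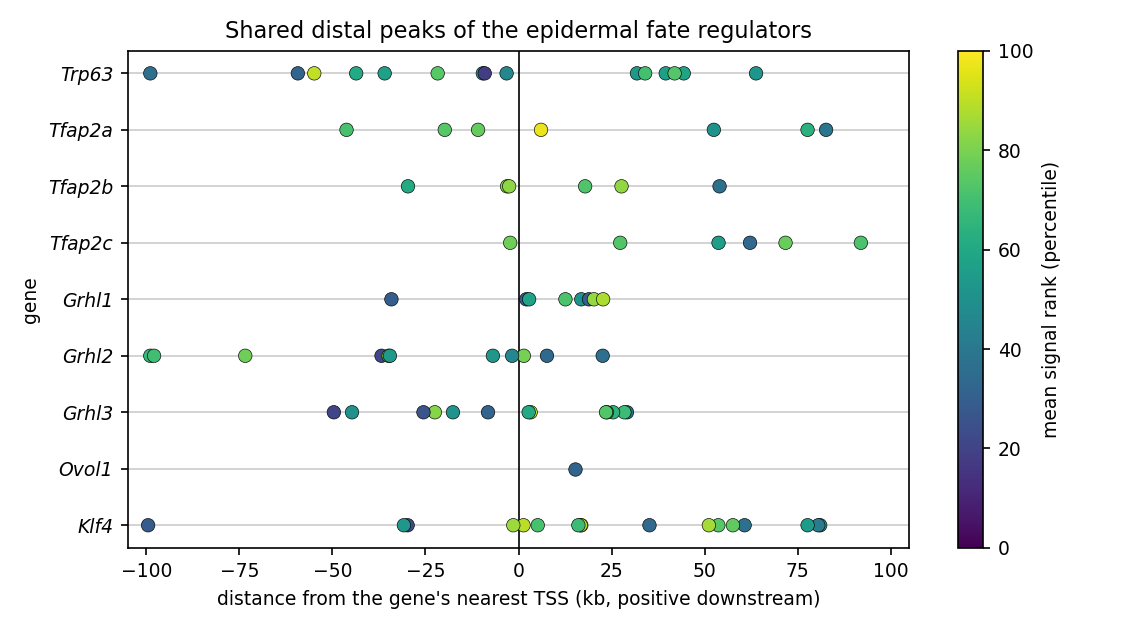
Position of the 84 shared distal peaks relative to the gene's nearest TSS (kb, positive downstream), coloured by the mean of the signal ranks in both replicates. The Tfap2a peak at 6.0 kb has the highest mean rank, 97.2, and those of Klf4 reach to 99.5 kb upstream.

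In strength the members' distal peaks were close to those of all genes. Their median mean rank was 60.3, beside 61.4 over all 75905 shared distal peaks within 100 kb of a TSS, and 5 of 84 (5.95%) had a mean rank above 90, beside 7.70%. The median GC content was 50% against 49.3%, and the median CpG ratio 0.321 against 0.248. They lay farther out, at a median of 28.8 kb against 17.6 kb. Fewer were inside the body of the gene they were given to, 33 of 84 (39.3%) against 47.7%. Neither the distance nor this share was adjusted for territory, which came to 1376.8 kb over the 9 members and 1584 Mb over all 21938 genes. In replicate 1, 7 of 84 (8.33%) were in hotspots of 1 kb or more, beside 4.75% of all, and those 7 were 4 at Klf4, 2 at Grhl3 and 1 at Grhl2. Replicate 2 did not show this: at its coordinates 1 of 85 shared distal peaks (1.18%), at Klf4, was in such a hotspot, beside 2.07% of all.

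The letters of the members' own families were found in some of their distal peaks. The AP-2 letters were in 8 of 84 (9.52%), beside 6.18% of all shared distal peaks: 2 at Tfap2c, 2 at Grhl2 and 1 each at Trp63, Tfap2a, Grhl1 and Grhl3. The GRHL letters were in 2 of 84 (2.38%, all 1.64%), the p63 pair in 1 (1.19%, all 0.405%), ACATGT in 4 (4.76%, all 4.42%), the KLF letters in 5 (5.95%, all 3.60%) and the OVOL letters in 2 (2.38%, all 1.12%). At least 1 of these patterns was in 20 of 84 (23.8%), beside 16.3% of all. GGAATG, read by TEAD factors, was in 15 (17.9%, all 13.3%), and TGANTCA, read by AP-1, in 5 (5.95%, all 6.49%). The SP letters GGGCGGG were in 7 (8.33%, all 3.66%). A share above that of all peaks was thus not confined to the members' own families. In the 16 shared TSS peaks the AP-2 letters occurred in 2 (12.5%, all shared TSS peaks 15.3%), the AP-1 letters in 2 (12.5%, all 2.71%) and the GRHL, p63, KLF and OVOL letters in 0. A match is a match of letters only, and the differences rest on few peaks. Peaks called in both libraries are often offset, so the letters inside them depend on the library. At the coordinates of replicate 2, an alternative added after the values were seen, the AP-2 letters were in 8 of 85 peaks (9.41%), the KLF letters in 8 (9.41%, all 3.62%) and the OVOL letters in 1 (1.18%, all 1.13%). There the SP letters were in 8 (9.41%, all 3.81%). The GRHL letters were again in 2, at Trp63 and Grhl3. The p63 pair was no longer in the Trp63 peak but in 1 at Grhl2, 97.9 kb upstream, and the printed Klf4 peak no longer held the KLF letters. The AP-2 share ran from 6.25% to 16.2% under the alternatives tried.

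The share of peaks found in both replicates was close to that of other genes, while the signals tracked each other less closely. Of the distal peaks of replicate 1 given to members 59.2% were shared, beside 60.2% of all distal peaks, and in replicate 2 the shares were 69.1% and 65.0%. Spearman's correlation between the replicates' signals was 0.735 over the members' 84 shared distal peaks and 0.827 over all 75905, where peaks within a library share its depth. Unshared peaks were weak, at a median rank of 18.5 in replicate 1 and 17.4 in replicate 2, where the shared ones had 65.1 and 63.8. The genes differed in which replicate ranked their peaks higher, a comparison chosen after the values were seen. At Trp63, 12 of 15 shared distal peaks ranked higher in replicate 2, by a median of 11.2 percentile points over the 15, and so did the delta N promoter peak. At Tfap2a 0 of 7 did, and the median difference, replicate 2 minus replicate 1, was -15.8 points. Over all members the count was 44 of 84 (52.4%), and over all shared distal peaks 46.5%. The share was 57.4% for the endothelial markers, 53.1% for the structural genes of epidermis, 52.2% for the basal epidermal markers, 45.6% for the further epidermal regulators and 43.6% for the limb mesenchymal markers. With 2 libraries these differences have no test.

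**Figure D5:**
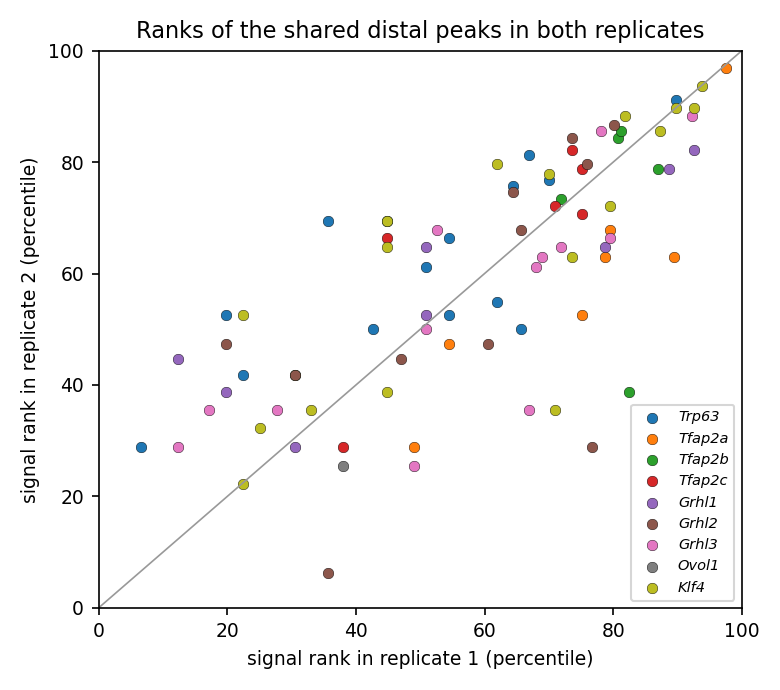
Signal rank of each of the 84 shared distal peaks in replicate 1 (horizontal) and replicate 2 (vertical), as percentiles of each list, coloured by gene, with the line of equal rank. Of the Trp63 points 12 of 15 lie above the line, and of the Tfap2a points 0 of 7.

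Other genes of the epidermal programme were taken from lists. Of 30 further regulators of epidermis and its appendages 29 had a shared TSS peak (96.7%, all genes 65.1%). The exception was Foxn1, a regulator of hair keratinisation, with no TSS peak in either replicate and 2 shared distal peaks. Those with the most shared peaks, TSS and distal added, were Hes1 and Rbpj, both of the Notch pathway, with 34 each, and Rxra, a nuclear receptor, with 29. These 3 act in many tissues, as do others on the list. The median number of shared distal peaks was 4.5 on that list of regulators and 8 for the members. Of 50 structural and signalling genes of epidermis 34 had a shared TSS peak (68.0%), a share near that of all genes. The 16 without were Krt14, Krt8, Krt18, Pkp1, Dsg3, Dsc3, Dsg1a, Ppl, Ivl, Lor, Flg, Tgm3, Tgm5, Fermt1, Wnt3a and Wnt7b. The genes of the cornified layer and its crosslinking were divided. Ivl, Lor, Flg and Ppl had no TSS peak in either replicate and Tgm3 and Tgm5 had 1 in replicate 2 alone, while Evpl had 1 shared TSS peak and Tgm1 had 2. Fgfr2, an FGF receptor, had the most shared peaks of that list at 37, followed by Dst, a hemidesmosomal linker, with 30 and Itga6, a basal integrin, with 21.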

How the data were processed

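DNase-seq was deposited for 2 libraries of embryonic mouse limb, 1 group. Per the readme deposited with each library, the authors called peaks and hotspots on mm10 from 1 alignment per library. The aligner and caller were not given in the sources used here. In the peak lists the signal as deposited is the authors' whole number of unknown scaling, so it was compared within a list, or between lists by rank percentile. Hotspots carry the authors' −log10 of the q-value, which ends at 100.

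Peaks on the autosomes, X and Y were assigned to TSSs of GENCODE M21 with Python 3.11.15 and pandas 2.3.3, and sequences came from RefSeq's GRCm38 genome through pysam 0.24.0. Shared peaks carry the coordinates of replicate 1. The 2 Trp63 promoters were separated at the largest gap between its TSSs. The overlap, distance and letter searches were tested on simulated regions. No significance test was made, because 1 group has no contrast. The members and lists were chosen with earlier results of these data known, so counts are descriptions, set beside all genes or all shared distal peaks. Named are all members, the 3 distal peaks of highest mean rank at each, and from each list the genes without a shared TSS peak and the 3 with the most shared peaks. The alternatives were other overlaps, windows, distances and annotations, the strongest peaks, hotspots, each replicate alone and, added after the values were seen, the coordinates of replicate 2.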

Additional observations from a re-analysis of the deposited data

How the results depend on the processing

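Of 60 values recomputed under alternatives, 44 stayed within 1.5 times the reported count, or within 1 SD of the replicates for a percentage or rank, and 16 moved. That margin is wide for small counts. The SD was taken from the values of each replicate alone, which are themselves among the alternatives scored. For percentages and ranks it is therefore a rough guide only. The 8 members with a shared TSS peak fell to 6 with the outermost TSS only, and this was scored as unmoved. With the 50000 peaks of highest signal, 4 members had a shared TSS peak, the delta N promoter had 0, the members' shared distal peaks numbered 16 with a median rank of 85.8 and an AP-2 share of 6.25%, and 18 structural genes were open. With a TSS window of 1000 bp the TA promoter had 1 shared peak. With all annotated genes, 37 distal peaks were left, with a median rank of 65.99 and an AP-2 share of 16.2%. That share was 12.7% with hotspots and 11.5% within 50 kb. Without replicate 1 or replicate 2, all peaks of the other being used, the distal peaks ran from 123 to 142, their median rank from 43.8 to 50.1 and the AP-2 share from 8.13% to 9.86%. No count over all genes is given here beside these values. No paired analysis was possible because the study has 1 group. Depth is unknown, so a promoter without a called or shared peak, such as those of TA Trp63 and Ovol1, cannot be called closed.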

Other observations

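Beyond 100 kb, which the distal rule leaves out, the members differed widely. Klf4 was the nearest protein-coding gene to a further 38 shared peaks, the farthest 581.5 kb from its TSS, which is over 2 times the 17 counted within 100 kb. Replicate 1 had 54 such peaks and replicate 2 had 62. Tfap2b had 10, the farthest at 554.7 kb, Tfap2c 5, Trp63 and Tfap2a 2 each and Grhl2 1, and Grhl1, Grhl3 and Ovol1 had 0. Unlike the counts within 100 kb, these were not set per length of sequence and have no count over all genes beside them. Which gene, if any, the peaks act on was not tested.

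Among 11 relatives of the members, of which Ovol2 and Klf5 are also among the further regulators, 8 had a shared TSS peak (72.7%, all genes 65.1%). Those without were Trp73, Tfap2d and Ovol3, which had no TSS peak in either replicate. Those with the most shared peaks were Ubp1, a Grainyhead-family factor, with 6, Trp73 with 5 and Klf5 and Tfap2e with 4 each. The median number of shared distal peaks was 2 for the relatives and 8 for the members.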
